A study of Mus musculus with 24 samples.

Results

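The metabotropic glutamate receptor genes Grm2, Grm3, Grm4, Grm5, Grm7 and Grm8 were examined in the mouse spinal cord after nerve injury, at the level of RNA and of N6-methyladenosine (m6A) in their transcripts. They were found by their symbols, which matched 6 of the 32884 genes of the expression table, and their m6A peaks were found by the matching gene identifiers in the peak lists. In spared nerve injury (SNI), the common peroneal and tibial branches of the sciatic nerve are ligated and cut while the sural branch is left. Spinal cord was taken 3, 7 or 14 days after SNI, or after a sham operation in which the nerve was exposed only, labelled day 3. Each of the 4 groups had 3 replicates, each sequenced as an input RNA library and as a library enriched with an antibody to m6A, 24 samples in all. No genetic change or drug is named for any group, and strain, sex and age are not given in the labels. Whether separate mice gave the replicates is not in the labels, so p-values measure the spread between these libraries, which may be technical. A sham group of day 7 or day 14 is not analysed here, so time after surgery and injury cannot be told apart on those days.

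Metabotropic glutamate receptors are G protein-coupled receptors that tune synaptic strength over seconds to minutes, unlike the glutamate-gated channels that carry fast transmission. Group I receptors, Grm5 among them, lie mainly beside the postsynaptic density and act through Gq, phospholipase C and calcium release. Group II (Grm2 and Grm3) and group III (Grm4, Grm7 and Grm8) receptors act through Gi/o, lower cyclic AMP and mostly reduce transmitter release. In the dorsal horn, the receptors are known as modulators of nociceptive input. m6A is a methyl mark on adenosine in RNA, placed mainly in long exons, near stop codons and in 3′ UTRs, that affects the stability, splicing and translation of transcripts.

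RNA level was deposited as FPKM, a fragment count scaled by transcript length and by the mapped fragments of the library. No read counts were used here, so the depth of each library is unknown. Neuronal, glial and spinal Hox marker genes were present in all 12 input libraries, of the forebrain markers Emx1 was at most 0.0616 FPKM and Neurod6 was at 1.18 to 2.25 FPKM, and the Schwann cell markers summed to at most 1.91 FPKM. SNI day 7 replicate 3 and sham replicate 3 stood apart: their log2 expression correlated at r = 0.983 with each other across genes, and at 0.925 to 0.942 with the other 10 libraries, which correlated at 0.979 to 0.988 among themselves. These 2 libraries had 17.0 and 17.5 FPKM of Slc32a1, the vesicular transporter of inhibitory neurons, against 46.8 to 50.3 FPKM in the other 10, and 2.62 and 3.25 FPKM of the motor neuron marker Chat, against 6.35 to 7.78 FPKM. Slc17a6, the vesicular transporter of excitatory neurons, was higher in them, with 36.9 and 37.4 FPKM against 29.1 to 31.5 FPKM. The vesicle protein gene Syt1 was higher too, with 29.4 and 32.5 FPKM against 21.3 to 23.7 FPKM. Snap25 was lower, with 305 and 345 FPKM against 355 to 375 FPKM, and the ranges of Rbfox3 and Stmn2 overlapped those of the other 10. The spinal Hox markers summed to 164 FPKM in each of these 2 libraries, against 137 to 145 FPKM in the other 10. Hoxa7, Hoxc8, Hoxc9 and Hoxc10 were higher in the 2 libraries, while Hoxd9 and Hoxb8 were lower. Hoxd9 had 9.99 and 10.1 FPKM against 10.6 to 12.3 FPKM, and Hoxb8 52.0 and 52.9 FPKM against 53.2 to 56.6 FPKM. The 7 neuronal markers summed to 487 and 526 FPKM in the 2 libraries, against 564 to 588 FPKM in the other 10. The 4 oligodendrocyte markers summed to 2820 and 3200 FPKM, against 3020 to 3920 FPKM. The part of these differences in the receptor values was not tested, so each comparison is given with all 12 libraries and without these 2. In whole tissue, fewer cells of a type and less RNA per cell cannot be told apart.

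None of the 6 receptor genes passed the test for a change of RNA level in the spinal cord on any day after SNI. In limma, fitted over the 15564 genes with a mean of at least 0.5 FPKM, 0 of 6 had an adjusted p below 0.05 on SNI day 3, day 7 or day 14 against sham, where 0.0578%, 0.103% and 0.0514% of all genes tested did. The count at an unadjusted p below 0.05 was also 0 of 6 on each day, where 6.24%, 2.53% and 4.92% of all genes reached it. Median log2 differences over the 6 genes were -0.05, 0.06 and -0.06 on days 3, 7 and 14, beside 0.03, 0.01 and 0.03 over all genes tested. All differences in RNA level are on the scale of log2(FPKM + 0.5), which understates changes of low genes such as Grm2 and Grm8. The precision differed widely between the genes, as the values by library show.

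**Figure D1:**
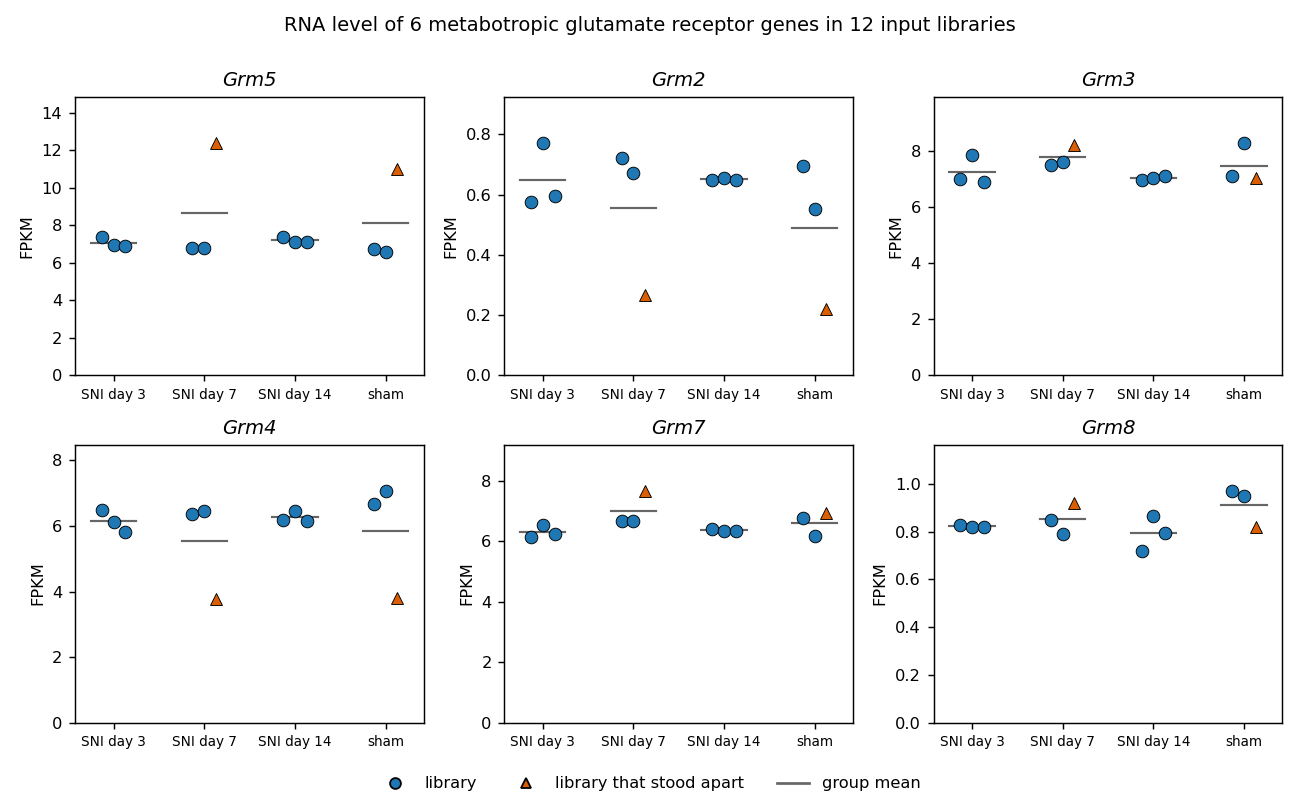
RNA level (FPKM, linear axes from 0) of the 6 receptor genes in each input library, by group, with SNI days 3, 7 and 14 left of sham; grey lines are group means of 3 libraries and triangles mark SNI day 7 replicate 3 and sham replicate 3. The triangles lie high for Grm5 (12.4 and 11.0 FPKM) and low for Grm4 (3.76 and 3.79 FPKM) and Grm2 (0.267 and 0.218 FPKM), and near the other libraries for Grm3, Grm7 and Grm8.

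Grm5, the group I receptor that drives calcium release in dendrites, lies on chromosome 7 (chr7:87584168-88134907, plus strand, 7 transcripts in the table). It had 7.34, 6.92 and 6.89 FPKM on SNI day 3, 6.76, 6.77 and 12.4 FPKM on SNI day 7, 7.37, 7.09 and 7.10 FPKM on SNI day 14, and 6.75, 6.57 and 11.0 FPKM in sham cord. The 2 values above 10 FPKM are those of the 2 libraries that stood apart, and with them the ranges of each injured group and of sham overlapped. The differences from sham were -0.15 ± 0.23, 0.07 ± 0.23 and -0.13 ± 0.23 (log2 ± SE) on days 3, 7 and 14, with limma adjusted p of 0.762, 1 and 0.799. The 95% interval on day 3 ran from -0.66 to 0.36. Without the 2 libraries the direction on days 3 and 14 turned: all 8 injured libraries (6.76 to 7.37 FPKM) lay above both sham libraries (6.57 and 6.75 FPKM), and the differences were 0.08, 0.02 and 0.10, with limma adjusted p of 0.28, 0.878 and 0.174. Leaving out sham replicate 3 alone gave the same differences of 0.08 and 0.10 on days 3 and 14. Groups that do not overlap in this direction were found for 23.0%, 22.8% and 22.4% of all genes on the 3 days without these libraries. The ordering on a single day is thus shared by many genes, and the share of genes with it on all 3 days was not computed. With all 12 libraries no receptor gene had groups that do not overlap against sham, beside 13.4% of genes higher and 7.48% lower on day 3, 2.78% and 1.66% on day 7, and 12.2% and 6.12% on day 14.

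Of the group II genes, Grm2 was the lowest of the 6 in mean level. Grm2, a presynaptic autoreceptor (chr9:106643095-106656082, minus strand, 4 transcripts), had 0.576, 0.770 and 0.594 FPKM on SNI day 3, 0.721, 0.673 and 0.267 FPKM on SNI day 7, 0.647, 0.655 and 0.649 FPKM on SNI day 14, and 0.696, 0.553 and 0.218 FPKM in sham cord. Its 2 lowest values are again in the libraries that stood apart, and all groups overlapped sham. The differences from sham were 0.24 ± 0.21, 0.09 ± 0.21 and 0.25 ± 0.21 (log2 ± SE), with limma adjusted p of 0.695, 1 and 0.7. Without the 2 libraries they were 0.03, 0.09 and 0.04. A mean of 0.585 FPKM put Grm2 at the 3.2 percentile of the genes tested, just above the filter of 0.5 FPKM.

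Grm3, which astrocytes as well as neurons are known to express, lies on chromosome 5 (chr5:9485541-9725170, minus strand, 1 transcript). It had 7.01, 7.86 and 6.89 FPKM on SNI day 3, 7.49, 7.61 and 8.22 FPKM on SNI day 7, 6.95, 7.02 and 7.11 FPKM on SNI day 14, and 7.09, 8.26 and 7.03 FPKM in sham cord. Sham replicate 2 and not a library that stood apart gave the highest value, and every injured group overlapped sham. The differences from sham were -0.04, 0.06 and -0.08, each with an SE of 0.08, and limma adjusted p was 0.83, 1 and 0.703. The 95% interval on day 14 ran from -0.26 to 0.10, and the SE was below those of Grm5, Grm4 and Grm2. Without the 2 libraries that stood apart the direction on day 7 turned, and the differences were -0.08, -0.02 and -0.12, with limma adjusted p of 0.576, 0.942 and 0.4. The day 14 values lay below all day 7 values, as taken up with the other comparisons between days. The 5 astrocyte markers measured beside it summed to 493 to 495, 531 to 593 and 422 to 433 FPKM on SNI days 3, 7 and 14. In sham cord they summed to 456 to 490 FPKM. Most of each sum was Gfap, with means of 358, 386 and 299 FPKM on SNI days 3, 7 and 14 and 326 FPKM in sham. The means of Gfap, Aqp4 and Gja1 were highest on day 7 and lowest on day 14. Those of Aldh1l1 were lowest on day 7 and highest on day 14, with 13.7, 13.5 and 14.4 FPKM on the injured days. Slc1a3 had its highest mean in sham and its lowest on day 3. The part of these markers in the Grm3 values was not tested.

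Of the group III genes, Grm4 varied with the 2 libraries that stood apart. Grm4, a presynaptic receptor (chr17:27422387-27521403, minus strand, 5 transcripts), had 6.49, 6.13 and 5.81 FPKM on SNI day 3, 6.37, 6.47 and 3.76 FPKM on SNI day 7, 6.18, 6.47 and 6.15 FPKM on SNI day 14, and 6.68, 7.07 and 3.79 FPKM in sham cord. With all libraries every injured group overlapped sham, and the differences were 0.11, -0.07 and 0.14, each with an SE of 0.23 (limma adjusted p of 0.824, 1 and 0.781). Without the 2 libraries all 8 injured values (5.81 to 6.49 FPKM) lay below both sham values (6.68 and 7.07 FPKM). The differences were then -0.15 ± 0.05, -0.09 ± 0.05 and -0.12 ± 0.05, with limma adjusted p of 0.109, 0.528 and 0.205. The day 3 value was the nearest that any of the 6 genes came to the threshold: its unadjusted p of 0.0135 was one of those below 0.05 that 21.9% of all genes gave in the same comparison. Grm4 thus passed in neither fit, and its direction on days 3 and 14 depended on sham replicate 3, without which alone the differences were also -0.15 and -0.12.

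Grm7, the receptor of the presynaptic active zone with low affinity for glutamate, lies on chromosome 6 (chr6:110645581-111567230, plus strand, 5 transcripts). It had 6.14, 6.55 and 6.24 FPKM on SNI day 3, 6.67, 6.68 and 7.67 FPKM on SNI day 7, 6.43, 6.34 and 6.36 FPKM on SNI day 14, and 6.76, 6.19 and 6.93 FPKM in sham cord. The injured groups overlapped sham on each day. The differences were -0.06, 0.07 and -0.05, each with an SE of 0.07, and limma adjusted p was 0.712, 1 and 0.755. The 2 libraries that stood apart held the highest value of their groups, but by a factor of 1.15 on SNI day 7 and 1.07 in sham cord over the mean of the other replicates. Without these libraries the differences were -0.03, 0.04 and -0.02, with limma adjusted p of 0.708, 0.778 and 0.85.

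Grm8, another presynaptic group III receptor (chr6:27275119-28135178, minus strand, 5 transcripts), had 0.826, 0.821 and 0.820 FPKM on SNI day 3, 0.847, 0.788 and 0.918 FPKM on SNI day 7, 0.718, 0.864 and 0.796 FPKM on SNI day 14, and 0.970, 0.947 and 0.820 FPKM in sham cord. Its sham values of replicates 1 and 2 were the highest of the 12, while sham replicate 3 fell among the injured ones. The differences were -0.09, -0.06 and -0.13, each with an SE of 0.09, and limma adjusted p was 0.695, 1 and 0.7. Without the 2 libraries they were -0.14, -0.15 and -0.18, with limma adjusted p of 0.352, 0.541 and 0.273, and all injured values lay below both sham values. Grm4 and Grm8 were the 2 genes that did so on all 3 days. Taken day by day, 16.4%, 20.1% and 13.8% of all genes had lower, non-overlapping values on days 3, 7 and 14. The share with this order on all 3 days was not computed, and the 3 comparisons use the same 2 sham libraries. Unlike Grm4, Grm8 kept its direction with and without these libraries.

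**Figure D2:**
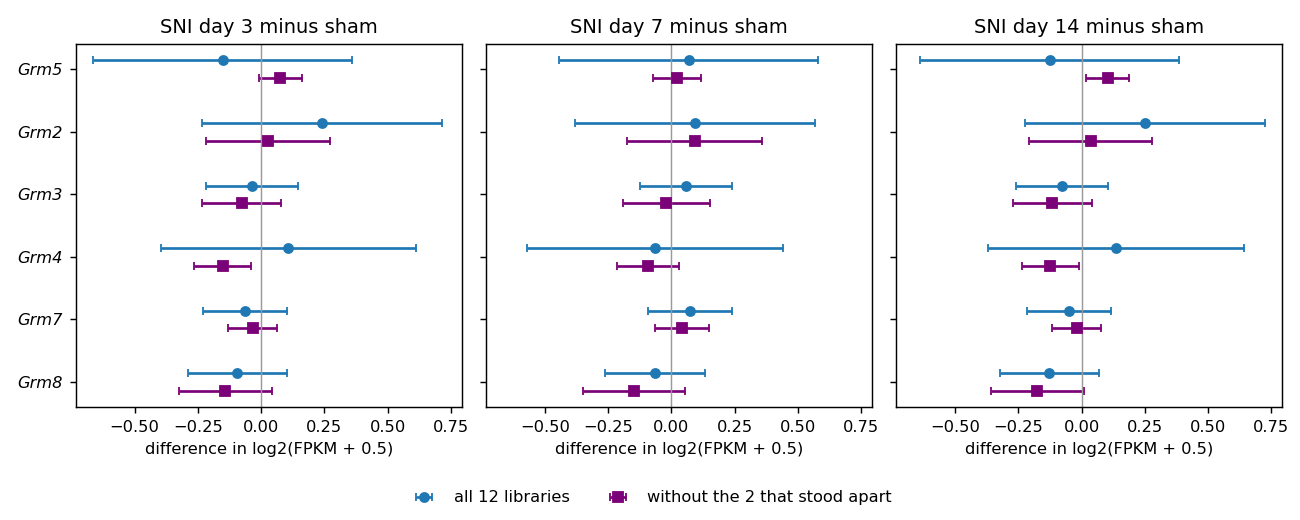
Differences in log2(FPKM + 0.5) of each SNI day minus sham for the 6 receptor genes, with 95% intervals from limma, for all 12 libraries (circles) and without SNI day 7 replicate 3 and sham replicate 3 (squares). The intervals of Grm5, Grm4 and Grm2 narrow without the 2 libraries; for Grm5 and Grm4 the points on days 3 and 14 change side, as does that of Grm3 on day 7, and no gene passed an adjusted p below 0.05 in either fit.

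The size of the departure in the 2 libraries separated the genes. Grm5 was 1.83 times the mean of replicates 1 and 2 in SNI day 7 replicate 3, and 1.65 times in sham replicate 3. Grm4 was at 0.586 and 0.552 of that mean, and Grm2 at 0.382 and 0.35. Grm3 (1.09 and 0.915), Grm7 (1.15 and 1.07) and Grm8 (1.12 and 0.855) departed less. Departures at least as large as that of Grm5 on the log2 scale were found for 11.4% of the genes tested on SNI day 7 and 22.6% in sham cord, for Grm4 the shares were 18.0% and 16.6%, and for Grm2 22.1% and 25.6%. The receptor genes thus departed no more than many others.

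Between the injured days, 0 of 6 receptor genes passed in any of the comparisons of day 7 with day 3, day 14 with day 7 and day 14 with day 3, where the limma adjusted p ranged from 0.784 to 1 and 0.0129%, 0.0321% and 0.0129% of all genes passed. Grm7 was higher in all day 7 libraries (6.67 to 7.67 FPKM) than in all day 3 libraries (6.14 to 6.55 FPKM), a difference of 0.14 ± 0.07 with a limma adjusted p of 0.791. Without SNI day 7 replicate 3 and sham replicate 3 it was 0.08, with a limma adjusted p of 0.468. Groups of these days did not overlap in this direction for 6.58% of all genes. Grm3 and Grm7 were lower in all day 14 libraries than in all day 7 libraries, by -0.14 and -0.12, with a limma adjusted p of 0.784 each, where 6.44% of all genes had such an order. These differences were -0.10 and -0.06 without the 2 libraries, with limma adjusted p of 0.55 and 0.546. On day 14 the 3 values of Grm3 were 6.95 to 7.11 FPKM, and on day 7 they were 7.49 to 8.22 FPKM. Day 14 against day 3 showed no receptor gene with groups that do not overlap, beside 11.8% of genes higher and 9.87% lower.

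FPKM is scaled by transcript length, so the levels of the genes can be ordered. Over the 10 libraries that did not stand apart, Grm3 (7.33 FPKM), Grm5 (6.96 FPKM), Grm7 (6.44 FPKM) and Grm4 (6.38 FPKM) had near levels, and the ranges of each neighbouring pair overlapped. Grm8 (0.840 FPKM) and Grm2 (0.653 FPKM) followed far below, with ranges that overlapped each other and did not reach Grm4. The same break between Grm4 and Grm8 was found in each of the 4 groups. Grm5 ranked above Grm3 in the means of SNI day 7, SNI day 14 and sham, and below it on SNI day 3, and the ranges of the pair overlapped in all 4 groups. On SNI day 7 and in sham this order rests on replicate 3: the means of replicates 1 and 2 were 6.77 FPKM for Grm5 and 7.55 FPKM for Grm3 on SNI day 7, and 6.66 FPKM for Grm5 and 7.68 FPKM for Grm3 in sham cord. Among all genes tested, the 12-library means of Grm5, Grm3, Grm7, Grm4, Grm8 and Grm2 stood at the 66.3, 64.9, 61.4, 58.6, 10.2 and 3.2 percentiles.

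The genes whose log2 levels were most like each receptor gene over the 10 libraries were sought among genes with a mean of at least 1 FPKM, with Pearson r as the measure. For Grm5 they were Rptor (r = 0.953), Eno2 (0.939) and Eif3d (0.934), and for Grm4 Utrn (0.921), Kctd1 (0.913) and Btbd3 (0.912). With the 2 other libraries added, r of Grm5 with Rptor, Eno2 and Eif3d was -0.941, -0.965 and -0.772. That of Grm4 with Utrn, Kctd1 and Btbd3 was -0.836, -0.605 and -0.921. The likeness of these genes to Grm5 and Grm4 therefore did not extend to the libraries that stood apart. Grm3 was most like Wdr5b, Nat8f7 and Pknox1, Grm7 like Slc16a9, Dele1 and Ndst4, Grm8 like Pex6, Gm12112 and Slc10a4, and Grm2 like Gm50240, Gm37844 and Mipep, with r between 0.871 and 0.945. With all 12 libraries r also fell below 0 for Gm50240 with Grm2 (-0.359), Dele1 with Grm7 (-0.504) and Slc10a4 with Grm8 (-0.0961), and for Pex6 with Grm8 it was 0.0943. The points share the 4 groups and a narrow range of levels, and these highest values were picked from all genes past that filter.

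Genes that work with the receptors were followed in a list of 61 names. Of these, 59 were in the expression table and 55 passed the filter. The list covers the scaffolds, the Gq and Gi/o coupling proteins and the binding partners. It also covers the enzymes and transporters that supply and clear glutamate and N-acetylaspartylglutamate. With all 12 libraries 0 of 55 passed in limma on any day, beside 0.0578%, 0.103% and 0.0514% of all genes tested on days 3, 7 and 14. On these days 5, 0 and 5 of the 55 had an unadjusted p below 0.05, beside 6.24%, 2.53% and 4.92% of all genes tested. The median log2 differences of the 55 were -0.06, -0.02 and -0.02, beside 0.03, 0.01 and 0.03 for all genes. The smallest unadjusted p belonged to Slc7a11, the cystine-glutamate exchanger of glia, on day 14. It had 0.633, 0.656 and 0.654 FPKM on SNI day 14, against 0.944, 0.973 and 1.18 FPKM in sham cord, and the groups did not overlap. Groups that do not overlap in this direction were found for 6.12% of all genes on day 14. The difference of Slc7a11 was -0.42 ± 0.12, with a limma adjusted p of 0.692. Slc7a11 did not pass without the 2 libraries either, with a difference of -0.35 and a limma adjusted p of 0.0645.

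Without the 2 libraries, 4 of the 55 rose and 3 fell on SNI day 3, 0 rose and 1 fell on day 7, and 2 rose and 1 fell on day 14, beside 4.01% and 3.06%, 0.732% and 0.379%, and 2.42% and 2.29% of all genes. Rgs4, which ends Gi/o and Gq signals by speeding GTP hydrolysis, had 24.0, 23.7 and 23.8 FPKM on SNI day 3, against 27.3 and 27.4 FPKM in sham replicates 1 and 2. Its sham replicate 3 was higher still, at 30.4 FPKM, so that the groups did not overlap with all libraries either. Lower, non-overlapping values on day 3 were found for 7.48% of all genes with all libraries, and for 16.4% without the 2 libraries. Rgs4 fell by 0.19 on day 3 and by 0.17 on day 14 on the log2 scale without the 2 libraries (limma adjusted p of 0.00415 and 0.0113). Among the scaffold and effector genes, Shank1, a postsynaptic scaffold that links the receptors through Homer, and Plcb1, a phospholipase C of the Gq pathway, fell on day 3 by 0.19 and 0.14 (limma adjusted p of 0.00489 and 0.0358). Gnaz, a Gi-family alpha subunit, and Grasp, a scaffold that binds group I receptors, rose on day 3 by 0.14 and 0.31 (limma adjusted p of 0.0487 and 0.0387). With all 12 libraries Rgs4, Plcb1, Gnaz and Grasp kept these directions on day 3, at -0.24, -0.30, 0.10 and 0.35, while Shank1 was at 0.01.

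Glul, the astrocyte enzyme that turns glutamate into glutamine, rose by 0.08 on day 3, fell by 0.08 on day 7 and rose by 0.09 on day 14 without the 2 libraries, with limma adjusted p of 0.00304, 0.0104 and 0.00251. It had 377, 374 and 372 FPKM on SNI day 3, 337 and 334 FPKM in SNI day 7 replicates 1 and 2, 375, 378 and 378 FPKM on SNI day 14, and 356 and 354 FPKM in sham replicates 1 and 2. SNI day 7 replicate 3 and sham replicate 3 had 506 and 609 FPKM, and with them Glul passed on no day and its differences were -0.18, -0.14 and -0.17 on days 3, 7 and 14. Its changes are small beside the departure of those 2 libraries, without which sham rests on 2 libraries. Between the days, without the 2 libraries, Glul fell on day 7 against day 3 (0.874% of all genes fell), Adcy1, Glul and Ncdn rose on day 14 against day 7 (1.08% rose), and Adcy1, Ncdn and Shank1 rose on day 14 against day 3 (0.932% rose), all at a limma adjusted p below 0.05. No receptor gene passed in these comparisons.

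**Figure D3:**
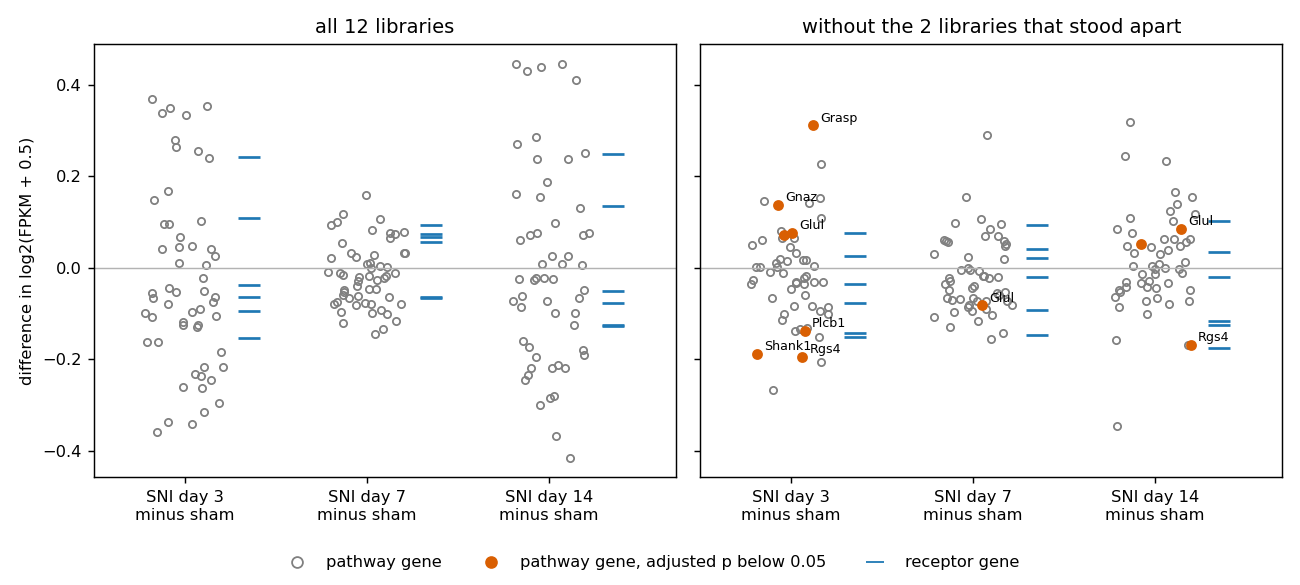
Differences in log2(FPKM + 0.5) of each SNI day minus sham for the 55 tested genes of the receptor pathway list (open circles; filled where limma's adjusted p was below 0.05, and named where the text describes the gene) and for the 6 receptor genes (blue bars), with all 12 libraries at left and without the 2 that stood apart at right; the sideways spread of points has no meaning. With all libraries no gene passed; without the 2 libraries 7, 1 and 3 list genes passed on days 3, 7 and 14 and no receptor gene did.

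m6A was deposited as 1 peak list per group, so that there is no replicate for a test, and the fold enrichments (m6A library over input) and p-values of peaks are the authors' own. The base of their logarithms is not in the headers. It is taken as 10, since the weakest p of the lists lies at -1.3 or -1.31 and the base 10 logarithm of 0.05 is -1.3. The lists hold 40195 (SNI day 3), 34136 (SNI day 7), 38655 (SNI day 14) and 32669 (sham) peaks. All 6 receptor genes had at least 1 peak in each list, where 85.5%, 76.6%, 85.1% and 74.4% of the genes with a mean of at least 0.5 FPKM had a peak in these lists in turn, and 70.0% in all 4. Their peaks numbered 20, 20 and 20 in the SNI day 3, 7 and 14 lists and 21 in the sham list. A peak annotated to the 3′ UTR was found in 5, 4 and 5 of the 6 genes in the injured lists and in 5 in the sham list, where 71.7%, 61.4%, 71.6% and 58.6% of genes had such a peak. For the 5′ UTR the counts were 5, 4 and 4 in the injured lists and 4 in the sham list, beside 34.3%, 23.3%, 33.3% and 24.0% of genes. The median fold of the receptor genes' peaks was 5.31, 4.23 and 5.22 in the injured lists and 5.05 in the sham list, beside 4.54, 5.37 and 4.52 in all peaks of the injured lists and 6.03 in all sham peaks. Folds of separate lists were not compared further, since the lists were called separately and differ in length and in median.

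Joined across lists by shared exonic bases, the peaks of the 6 genes formed 45 exonic regions. Of these, 14 (31.1%) held a peak in all 4 lists, beside 43.0% of the regions of all genes with a mean of at least 0.5 FPKM, and 16 held a peak in 1 list, beside 25.0%. The regions in all lists had a median of 600.5 bases, and the other 31 had a median of 107 bases. Each region joins the peaks of all lists, and short ends of peaks in further exons count as regions. Length and number of lists are therefore tied by how the regions were made. Another 6 regions had a peak in the 3 injured lists and not in sham (8.43% of the regions of all genes did), and 2 in sham only (3.73%). Of the 20 peaks in each injured list, 14 shared an exonic base with a sham peak of the same gene, where 63.1%, 73.4% and 64.9% of all peaks of the SNI day 3, 7 and 14 lists did. Seen from sham, 18, 17 and 19 of its 21 peaks shared a base with the day 3, 7 and 14 lists, beside 86.1%, 80.8% and 85.4% of all sham peaks. With an overlap of at least 50% of both spans, 7, 8 and 7 peaks were shared, beside 38.5%, 49.5% and 40.7% of all peaks. These spans run from the first to the last base of a peak and include introns. The 5′ peak of Grm3, for example, reached chr5:9725170 in the injured lists and chr5:9590135 in sham, and so fell short of 50%. How many peaks had a sham counterpart thus depended on the rule: 14 of 20 on each day with 1 shared exonic base, and 7 or 8 of 20 with 50% of both spans, introns included.

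**Figure D4:**
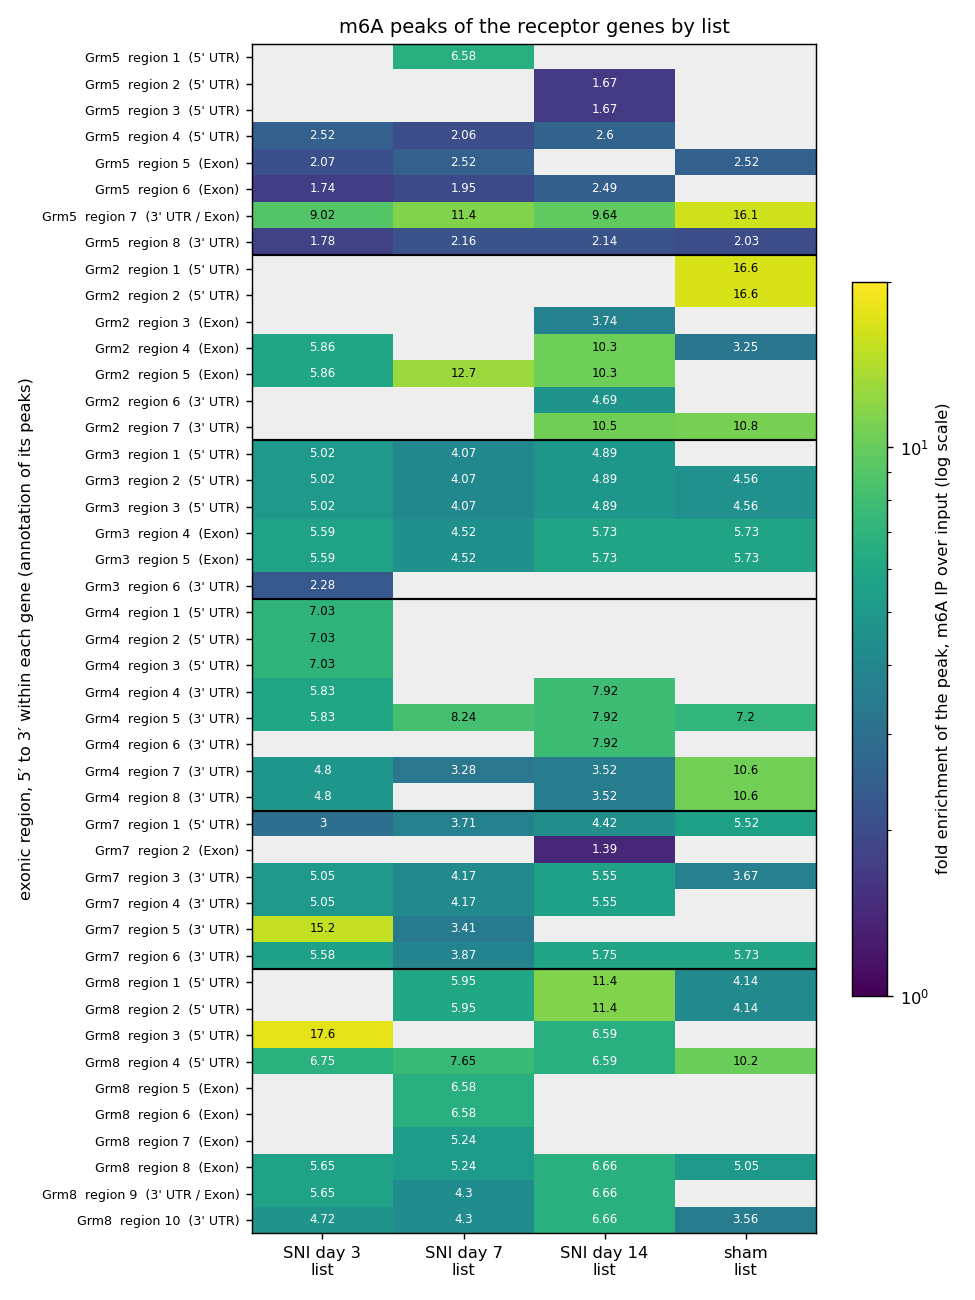
Fold enrichment of m6A peaks (m6A library over input, the authors' values, logarithmic colour scale) in the 45 exonic regions of the 6 receptor genes, with regions in transcript order within each gene and the SNI day 3, 7 and 14 lists left of the sham list; grey cells have no peak, and a peak that spans several regions gives each the same fold. Where a list had several peaks in a region, the highest fold is shown. The last long region of Grm5 is enriched in all 4 lists (9.02, 11.4, 9.64 and 16.1), while the regions of Grm2 and the first regions of Grm4 and Grm8 differ from list to list.

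Grm5 carried the strongest peak of the family, in its 3′ UTR and last exon at chr7:88129994-88131851. Its fold was 9.02, 11.4 and 9.64 in the SNI day 3, 7 and 14 lists and 16.1 in the sham list, with a log10 p of -380, -764, -478 and -701. Its p was at least as strong as that of 95.5%, 97.7% and 96.3% of the peaks of the injured lists, and of 96.3% of the sham peaks. In sham the region also held a weaker peak at chr7:88130173-88130323, with a fold of 2.79 and a log10 p of -12.7. The nearest gene named in the lists for this region is Gm44846, and whether reads were assigned by strand is not given in the sources used here. A weaker 3′ UTR region at chr7:88133858-88134158 was in all lists too, with folds of 1.78, 2.16 and 2.14 after injury and 2.03 in sham. Grm5 had 2 regions in all injured lists and not in sham. The first, of 360 bases, lay in the 5′ UTR at chr7:87602402-87602761, with folds of 2.52, 2.06 and 2.6 and a log10 p of -13.8, -10.3 and -17.8. The second, of 300 bases, lay in exon 9 of 10 at chr7:88074611-88074910, with folds of 1.74, 1.95 and 2.49 and a log10 p of -9, -18.2 and -22.4. Both are of low fold. Just downstream of the first, the region chr7:87602821-87603151 held a peak in the day 3, day 7 and sham lists, with folds of 2.07, 2.52 and 2.52, and none in the day 14 list.

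The group II genes differed in how steady their peaks were. Grm3 had 2 long peaks in each list, which span several exons. The peak over the exons towards the 3′ end had folds of 5.59, 4.52 and 5.73 after injury and 5.73 in sham, and the peak from the 5′ UTR had 5.02, 4.07 and 4.89 after injury and 4.56 in sham. Of the 6 regions of Grm3, 4 were in all lists, and the first, of 41 bases in the 5′ UTR, was in the injured lists only, as part of a peak that in sham ended short of it. Grm2, at its low level, had no region in all 4 lists among 7, with 1, 1 and 4 peaks in the injured lists and 3 in sham. Its region at chr9:106647559-106648226 was in the injured lists only, with folds of 5.86, 12.7 and 10.3 and a log10 p of -7.24, -6.46 and -7.07. The day 3 and day 14 values are those of peaks that extend over a neighbouring exon, where they share bases with a sham peak of fold 3.25. Only the day 7 peak, of 151 bases, lay within this region. In sham, Grm2 had a peak at its 5′ end with a fold of 16.6, its highest, but a log10 p of only -4.23. The peaks of Tex264, whose nearest gene in the lists is Grm2, were not counted.

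Among group III genes, Grm4 had peaks annotated to the 3′ UTR in each list, and 2 regions of these were in all lists. Its region at chr17:27434533-27435468 had folds of 5.83, 8.24 and 7.92 after injury and, in a pair of peaks, 7.2 and 6.97 in sham, and the region at chr17:27425899-27426490 had 4.8, 3.28 and 3.52 after injury and 10.6 in sham. The nearest genes named in the lists for these peaks are Gm49790 and Gm49789. A 5′ UTR peak of Grm4 was in the day 3 list alone, with a log10 p of -1.4 and a log10 false discovery rate of -0.549, which is weaker than a rate of 0.05. Over the 6 genes 1, 2 and 1 peaks of the injured lists and 1 of the sham list were as weak, beside 11.9%, 10.4%, 9.41% and 8.09% of all peaks. Grm7 had 3 regions in all lists: one at its 5′ end, with folds of 3.00, 3.71 and 4.42 after injury and 5.52 in sham, and 2 annotated to the 3′ UTR of its transcripts. The region at chr6:111358221-111359080 had folds of 5.05, 4.17 and 5.55 after injury and, in a pair of peaks, 2.82 and 3.67 in sham. The last one, at chr6:111566035-111566573, had 5.58, 3.87 and 5.75 after injury and 5.73 in sham. A region of 329 bases at chr6:111496227-111496555 had a fold of 15.2 on SNI day 3 and 3.41 on SNI day 7, with a log10 p of -4.88 and -3.14, and no peak on day 14 or in sham.

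Grm8, low as its RNA was, had the most regions, 10, of which 3 were in all lists. The region at its 5′ side, chr6:28125679-28126426, had folds of 6.75, 7.65 and 6.59 after injury and 10.2 in sham, with a log10 p of -28.1, -28, -23.4 and -50. A region of 302 bases at chr6:27285680-27285981 was in the injured lists only, with folds of 5.65, 4.3 and 6.66, from peaks that extend over neighbouring exons. The highest fold of the family, 17.6, was that of a 5′ UTR peak of Grm8 on SNI day 3 at chr6:28132090-28134279, but its log10 p was -4.1, and 34.1% of that list had a p as weak or weaker. The folds above 15 in Grm8, Grm2 and Grm7 thus came with weak p, and that of Grm5 in sham with the strongest p of the family in that list.

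Peaks at the 5′ ends were set beside the transcript starts of RefSeq in GRCm38.p6, for which 4 of the 6 genes (Grm2, Grm3, Grm7 and Grm8) had sequence, in 7 windows. All 6 genes overlap the GRCm38.p6 gene of the same name. The first 50 transcribed bases were searched, on the transcribed strand, for the m6A core motifs GGACT and then GGACA, then GGACC, and the forms with A first, AGACT and then AGACA, then AGACC, which 28.3% of the 32851 starts in the reference hold. For 2 starts of Grm8 a motif was found, and 30 bases of each of these are shown with the motif in capitals, beside 30 bases at starts of Grm7 and Grm2 that lie in peaks and hold none.
Grm8, chr6:28135110-28135139, minus strand: ttcacatggaagAGACTcgccggtggctcg
Grm8, chr6:28126380-28126409, minus strand: ggctgaattcaaGGACAtgaattgttgacc
Grm7, chr6:110645611-110645640, plus strand: caagccagggagcggggagcgcaagctggt
Grm2, chr9:106656060-106656089, minus strand: gcagagccagcgagagagccagcaagcggg
The first stretch of Grm8, at its most upstream start, lay in a peak of SNI day 14 and in a peak of sham. Their folds were 11.4 and 4.14, but their log10 p were only -2.71 and -1.62. A p as weak or weaker was found for 19.9% of the SNI day 14 list and 3.6% of the sham list. With a log10 false discovery rate of -1.01, the latter is the sham peak counted above as weak. The second stretch lay in another peak, of SNI day 14, with a fold of 6.59 and a log10 p of -23.4. This peak is part of the region chr6:28125679-28126426, which held a peak in all 4 lists. The peaks of the other lists reached only to chr6:28126369 on SNI days 3 and 7 and to chr6:28126309 in sham. They stopped just short of the stretch. The stretch of Grm7 lay in the 5′ peak of all 4 lists, and 23 of the 30 bases of Grm2 lay in the sham peak. A motif in these windows is a description and not a mapped site, and its absence says only that these letters are not there.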

How the data were processed

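Input RNA of 12 spinal cord libraries was deposited by the authors as FPKM per gene, per the file headers; HISAT2, StringTie, ChIPseeker and edgeR were used, per the submitters' processing notes. The peak tables deposited by the authors give, per the file headers, 1 list per group with a fold enrichment as a ratio and a score for each peak, the logarithm of its p-value and false discovery rate, read here as base 10. The peak caller is not given in the sources used here, nor are the genome build and any pooling of replicates. Low FPKM values were not whole multiples of a unit, so depth is unknown and no counting error was computed. Libraries were grouped by the labels. Replicate numbers come from the labels; same-numbered deviations from group means correlated at 0.459, 0.534 and 0.793 for SNI day 7 and sham, which counts as pairing, while every other comparison had at least 1 correlation of 0.1 or less.

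From these, limma 3.58.1 (R 4.3.3, trend, moderated) was fitted to log2(FPKM + 0.5) of 15564 genes with a mean of at least 0.5 FPKM in all 12 libraries, with Benjamini-Hochberg adjustment within each contrast, after tests on simulated data. Peaks were compared with bedtools 2.31.1 on the same strand, by spans that include introns, and exonic bases were compared separately. Starts are given 1-based. Named were all 6 receptor genes, list genes that passed in any contrast or were among the 2 of smallest p in their sub-list, and the 3 genes of highest Pearson r per receptor gene. The receptor genes and lists were chosen with earlier results of these data known. Alternatives were other scalings, pseudocounts, filters, fits, left-out libraries and overlaps. Counts over lists cover every list gene tested, and a few genes of these lists are not reported here by name.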

Additional observations from a re-analysis of the deposited data

How the results depend on the processing

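No receptor gene passed under any alternative: 0 of 852 single-gene values had an adjusted p below 0.05 in limma, the lowest being 0.109 for Grm4 on day 3 without the 2 libraries that stood apart. Other scalings (TPM, quantile, median-of-ratios), pseudocounts of 0.1 and 1, other filters and a fit of the 2 groups compared alone turned no direction. Neither did 6 averaged samples in place of near-identical libraries. In that averaged fit each library that stood apart weighed more within its group. It therefore could not show how directions depend on these libraries. Of the 23 turned directions under the other alternatives, 11 came with array weights and 12 without both libraries that stood apart; the cause was not tested. With array weights the log2 differences became -0.142 (Grm4) and 0.0697 (Grm5) on day 3 against sham, then -0.0198 (Grm3) on day 7 against sham, then -0.114 (Grm4) and 0.0958 (Grm5) on day 14 against sham, then 0.0647 (Grm2), 0.0485 (Grm4) and -0.0464 (Grm5) for day 7 against day 3, then -0.0556 (Grm2), -0.0207 (Grm4) and 0.0725 (Grm5) for day 14 against day 7. Without both libraries they became -0.152 (Grm4) and 0.0763 (Grm5) on day 3 against sham, then -0.0196 (Grm3) on day 7 against sham, then -0.124 (Grm4) and 0.103 (Grm5) on day 14 against sham, then 0.0657 (Grm2), 0.0597 (Grm4), -0.0544 (Grm5) and -0.00562 (Grm8) for day 7 against day 3, then -0.0573 (Grm2), -0.0318 (Grm4) and 0.0809 (Grm5) for day 14 against day 7. The genes of the pathway list that passed numbered 3 on day 3 and 2 on day 14 with array weights, and 7, 1 and 3 on days 3, 7 and 14 without both libraries, against 0 with all. In sham, 2 of the 6 genes kept their place in the order of levels without its replicate 3.

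Leaving out each library in turn turned 26 more values, none of which passed. On day 3 against sham the range was -0.093 to 0.0334 (Grm3), -0.152 to 0.257 (Grm4) and -0.275 to 0.0763 (Grm5). On day 7 against sham the range was -0.122 to 0.307 (Grm2), -0.325 to 0.168 (Grm4) and -0.206 to 0.296 (Grm5). On day 14 against sham the range was -0.124 to 0.285 (Grm4) and -0.249 to 0.103 (Grm5). For day 7 against day 3 the range was -0.27 to 0.0657 (Grm2), -0.295 to 0.0597 (Grm4), -0.0544 to 0.358 (Grm5) and -0.00562 to 0.0639 (Grm8). For day 14 against day 7 the range was -0.0573 to 0.279 (Grm2), -0.0318 to 0.323 (Grm4) and -0.331 to 0.0809 (Grm5). For day 14 against day 3 the range was -0.0355 to 0.0838 (Grm2), -0.0738 to 0.0152 (Grm3), -0.00884 to 0.0652 (Grm4), -0.0042 to 0.0389 (Grm7) and -0.0737 to 0.00784 (Grm8).

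Peaks shared with sham numbered 14, 14 and 14 of 20 on days 3, 7 and 14 with 1 base of overlap and likewise with shared exonic blocks, an alternative chosen after seeing the data, and 4, 4 and 4 with 80% reciprocal overlap, against 7, 8 and 7 with 50%. Of the sham peaks, 18, 17 and 19 of 21 were found again with 1 base and with exonic blocks, and 4, 4 and 4 with 80%.

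Of the comparisons, only day 7 against sham met the rule for pairing by replicate number, and both of its groups hold a library that stood apart as replicate 3; for the others at least 1 correlation of same-numbered deviations was not above 0.1, the lowest being -0.105. A fit with the replicate number as a block gave 0 receptor genes and 0 pathway genes passing on each day, and a Grm5 difference of -0.15 on day 3.

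The data used here held 3 libraries per group, sham at 1 time only, no counts and 1 peak list per group. Differences in m6A level were not tested. With all 12 libraries, precision in RNA was lowest for Grm4, Grm5 and Grm2. Without the 2 libraries that stood apart, the SE on day 3 was 0.05 for Grm4, 0.04 for Grm5 and 0.11 for Grm2. For Grm3, Grm7 and Grm8 it was then 0.07, 0.04 and 0.08.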
